A study of Homo sapiens with 8 samples.

Results

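The genes of cyclin E and of its E2F partners were followed through the accessible regions that the authors' annotation places nearest to them. The genes were CCNE1 and CCNE2, which encode the cyclins E1 and E2, CDK2, which encodes their kinase, and the transcription factor genes E2F1, E2F2, E2F3 and E2F8. A region was counted if its nearest annotated transcript carried one of these symbols, which gave 20 of the 62528 peaks of the deposited table. CCNE1 had 2 peaks, CCNE2 3, E2F1 3, E2F2 5, E2F3 6 and E2F8 1, whereas CDK2 had no peak under its own symbol and is not among the 6 genes counted. All 20 peaks had a mean of at least 2 CPM (counts scaled to library size) over the 8 libraries and were tested together with the other peaks, 62234 in all. Of the 20 peaks, 8 were promoter peaks, defined as lying within 1000 bp of the annotated start, 9 lay elsewhere in the gene and 3 were intergenic. The promoter share was 40%, against 25.5% of all peaks.

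Cyclin E binds CDK2 at the end of G1, and the active kinase phosphorylates the retinoblastoma protein RB, which then releases E2F factors from repression. E2F1, E2F2 and E2F3 mainly activate genes for S phase, while E2F8 is an atypical member that represses many of the same genes. CCNE1, CCNE2, E2F1 and E2F2 are themselves known E2F targets, so the pathway feeds back on its own promoters.

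ATAC-seq, which uses a transposase to tag open DNA, gave chromatin accessibility in JJN3 and KMS11, established human multiple myeloma cell lines. Each line was exposed for 48 h to the combination of pomalidomide at 200 nM with GNE-781 at 40 nM, to pomalidomide alone, to GNE-781 alone, or to the solvent DMSO. All cultures had 5% serum. Pomalidomide directs the cereblon ubiquitin ligase to the lymphoid factors IKZF1 and IKZF3, and GNE-781 is a bromodomain inhibitor of the coactivators EP300 and CREBBP. There was 1 library for each line and treatment, so a treatment comparison rests on 1 library pair per line, and nothing in the labels says that cultures were repeated. Cells overexpressing BATF or eGFP, which the design text names, are not analysed here.

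Library totals ran from 1366628 counts in JJN3 with DMSO to 5435673 counts in KMS11 with the combination, and the 20 peaks held 0.0508% to 0.0598% of each. One count was worth 0.752 CPM in the shallowest library and 0.178 CPM in the deepest, so low peaks are known less precisely in JJN3. Promoter peaks were present at 7 of 8 plasma cell marker genes, with TNFRSF17 the exception. The summed level of these 9 peaks was 200 to 232 CPM in every library. Of the markers of other cells, 1 of 4 B cell genes (PAX5), 1 of 5 T and NK genes (CD8A), 0 of 5 myeloid genes, 2 of 4 stromal genes and the erythroid gene HBB had a promoter peak. The levels were 0.97 to 10.1 CPM for B cell (1 peak) and 18.6 to 49 CPM for T and NK (1 peak). They were 13.5 to 55.1 CPM for stromal (sum of 2 peaks) and 1.45 to 12.8 CPM for HBB (1 peak). The sums cover unlike numbers of peaks, so they do not compare the lists promoter by promoter.

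The promoter sequences below show the letters that the open regions at the activator E2F genes and at CCNE1 cover. They run from 250 bases before to 50 bases after the RefSeq transcript start in GRCh38.p14, 5′ to 3′ on the strand of the gene. Such windows are described for 4 of the genes. CCNE2 was left out of this search, so whether its promoter holds the words below was not examined. Capitals mark the word TTTNNCGC, found on either strand, in which N stands for any base. This word is looser than the classical E2F motif, so a match need not be a classical E2F site. The E2F1 window is chr20:33686336-33686635 on the minus strand, E2F2 is chr1:23531184-23531483 on the minus strand, E2F3 at its upstream start is chr6:20401629-20401928 on the plus strand, and CCNE1 is chr19:29811741-29812040 on the plus strand.
E2F1: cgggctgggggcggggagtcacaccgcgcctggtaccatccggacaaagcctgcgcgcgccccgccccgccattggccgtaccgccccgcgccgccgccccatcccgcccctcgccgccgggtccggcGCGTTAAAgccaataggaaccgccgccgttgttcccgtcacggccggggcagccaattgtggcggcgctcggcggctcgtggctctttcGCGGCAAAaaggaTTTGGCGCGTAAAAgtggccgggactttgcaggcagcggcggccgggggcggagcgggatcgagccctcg
E2F2: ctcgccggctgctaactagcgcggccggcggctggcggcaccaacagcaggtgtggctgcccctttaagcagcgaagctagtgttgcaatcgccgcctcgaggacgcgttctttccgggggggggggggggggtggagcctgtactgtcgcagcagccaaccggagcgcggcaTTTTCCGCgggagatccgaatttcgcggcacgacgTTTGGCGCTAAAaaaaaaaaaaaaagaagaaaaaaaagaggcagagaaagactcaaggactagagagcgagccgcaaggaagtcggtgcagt
E2F3: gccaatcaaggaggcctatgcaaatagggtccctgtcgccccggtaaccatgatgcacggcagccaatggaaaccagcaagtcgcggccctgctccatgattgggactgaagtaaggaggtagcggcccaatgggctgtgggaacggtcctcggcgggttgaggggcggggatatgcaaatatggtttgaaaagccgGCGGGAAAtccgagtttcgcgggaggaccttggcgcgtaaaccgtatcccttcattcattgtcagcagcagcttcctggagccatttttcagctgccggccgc
CCNE1: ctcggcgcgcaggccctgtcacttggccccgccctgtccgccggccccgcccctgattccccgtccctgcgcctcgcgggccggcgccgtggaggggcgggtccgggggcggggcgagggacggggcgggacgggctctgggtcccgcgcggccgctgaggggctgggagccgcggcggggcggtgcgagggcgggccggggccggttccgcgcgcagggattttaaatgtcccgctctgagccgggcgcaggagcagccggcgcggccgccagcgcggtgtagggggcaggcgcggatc

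The word was present in 6.89% of 35116 RefSeq promoters of the same length. E2F1 held 4 matches, which begin 122, 33, 20 and 14 bases before the start, and the last 2 of them overlap, so that 30 bases are covered. E2F2 held 3 matches at 77, 42 and 38 bases before the start, again with an overlapping pair, and E2F3 held 1 at 53 bases before its upstream start. CCNE1 had no match in its window, and neither had the downstream start of E2F3. The GC box GGGCGG, which occurs in 45.0% of the promoters on either strand, was found 7 times at CCNE1, 6 times at E2F1 and 0 times at E2F2. At E2F3 it was found 1 time at the upstream start and 3 times at the downstream start. The CCAAT word, in 34.6% of the promoters, was found 3 times at E2F1 and 4 times at the upstream start of E2F3. Every base of the E2F1, E2F3 and CCNE1 windows lay inside a peak, and 214 of the 300 bases of the E2F2 window did. The letters are a description of what was open, since factor binding was not measured.

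The promoters of E2F3 were the most accessible of the family per length in both lines, and E2F8 and the inner E2F1 peak the least. Levels here are mean CPM per kb of peak ± SD over the 4 libraries of a line, which had 4 different treatments. In JJN3, the upstream E2F3 promoter had 128 ± 18.9 CPM per kb, ahead of the downstream E2F3 promoter with 66.6 ± 14.5, CCNE2 with 59.4 ± 9.11, E2F2 with 57.4 ± 16.2, the start peak of E2F1 with 45.2 ± 8.32 and CCNE1 with 34.7 ± 5.57. E2F8 with 21.2 ± 6.69 and the inner peak of E2F1 with 18.5 ± 5.33 came last. In KMS11 the upstream E2F3 promoter again led with 92.6 ± 5.57 CPM per kb, followed by the downstream E2F3 promoter with 64.6 ± 6.84, CCNE1 with 62.9 ± 10, the start peak of E2F1 with 55.1 ± 6.27, CCNE2 with 53.6 ± 5.82 and E2F2 with 47.2 ± 4.2. The inner peak of E2F1 with 32.4 ± 12.2 and E2F8 with 30.5 ± 7.11 were again the lowest. In each line the upstream E2F3 promoter stood above its neighbour by more than their SDs, and the next 3 pairs of neighbours in each order differed by less than the larger of their SDs. The upstream E2F3 promoter was at the percentile 99.7 of all peaks by this measure.

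With the combination, 3 of the 20 peaks were less accessible than with DMSO, 2 inside CCNE2 and 1 just inside E2F1, and none was more accessible. Over all peaks 4.79% were called in this comparison, 2.67% lower and 2.11% higher. Changes are log2 ± SE from 1 model with the cell line as a block, and a call needed an adjusted p under 0.05 in the quasi-likelihood test of edgeR, adjusted by Benjamini-Hochberg over all 62234 peaks. The median change of the 20 peaks was -0.14, beside 0 for all peaks. An unadjusted p under 0.05 was found at 4 of the 20, beside 10819 of all 62234 peaks. The 17 peaks that were not called ranged from -0.66 to 0.35. Both lines moved the same way at 11 of the 20 peaks.

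The deepest fall was at a peak inside CCNE2, the gene of cyclin E2, at chr8:94885782-94886168, which lies 9030 bp into the gene from the annotated start. In JJN3 it had 3.39 CPM with the combination, 10.7 CPM with pomalidomide, 8.34 CPM with GNE-781 and 15.8 CPM with DMSO. KMS11 had 2.85 CPM with the combination, 7.29 CPM with pomalidomide, 4.85 CPM with GNE-781 and 14.5 CPM with DMSO. The order of the 4 treatments was therefore the same in both lines, combination lowest and DMSO highest, and the combination libraries did not overlap the DMSO libraries. The change was -2.28 ± 0.39, or 4.85-fold lower, with an adjusted p of 9.82e-05. The counts behind it were small, 7 with the combination and 21 with DMSO in JJN3, and 16 with the combination and 56 with DMSO in KMS11. The scaled count ratio was 0.215 in JJN3 (95% exact counting interval 0.0772 to 0.525) and 0.197 in KMS11 (0.105 to 0.348). Among the 1663 peaks called lower, 30 had a larger fall.

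At E2F1, the gene of an activator E2F, the peak that fell starts 305 bp inside the gene and spans chr20:33685126-33686099. In JJN3 it had 11.2 CPM with the combination, 20.3 CPM with pomalidomide, 17.3 CPM with GNE-781 and 23.3 CPM with DMSO. The KMS11 libraries had 19.6 CPM with the combination, 28.1 CPM with pomalidomide, 30.7 CPM with GNE-781 and 47.9 CPM with DMSO. Each treated library was below the DMSO library of its line, and the combination was the lowest in both. The change with the combination was -1.22 ± 0.24, or 2.33-fold lower, with an adjusted p of 0.000844, and the log2 ratio was -0.99 in JJN3 and -1.27 in KMS11. Of the 1663 peaks called lower, 864 had a larger fall than this peak.

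The third peak that fell lies between the other CCNE2 peak and the CCNE2 start, at chr8:94891121-94891476, 3725 bp into the gene, where it also overlaps LOC100128548. In JJN3 it had 15 CPM with the combination, 16.3 CPM with pomalidomide, 28.9 CPM with GNE-781 and 23.3 CPM with DMSO. In KMS11 it had 6.94 CPM with the combination, 24.2 CPM with pomalidomide, 6.79 CPM with GNE-781 and 20.7 CPM with DMSO. The combination was below DMSO in both lines without overlap, while the single agents parted between the lines. The change was -1.17 ± 0.34 with an adjusted p of 0.0279, and the log2 ratio was -0.59 in JJN3 and -1.52 in KMS11. A larger fall was found at 953 of the 1663 peaks called lower.

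All 3 calls rested on the KMS11 DMSO library, without which none of the 20 peaks passed. The values were then -2.02 for the distal CCNE2 peak (adjusted p = 0.0587), -0.96 for the inner E2F1 peak (adjusted p = 0.271) and an adjusted p of 0.452 for the peak nearer the CCNE2 start. Without the KMS11 combination library 1 of the 20 passed, with -1.26 (adjusted p = 0.12) at E2F1 and -0.76 (adjusted p = 0.564) at the CCNE2 peak nearer the start. That CCNE2 peak was also not called by DESeq2, with an adjusted p of 0.711.

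**Figure D1:**
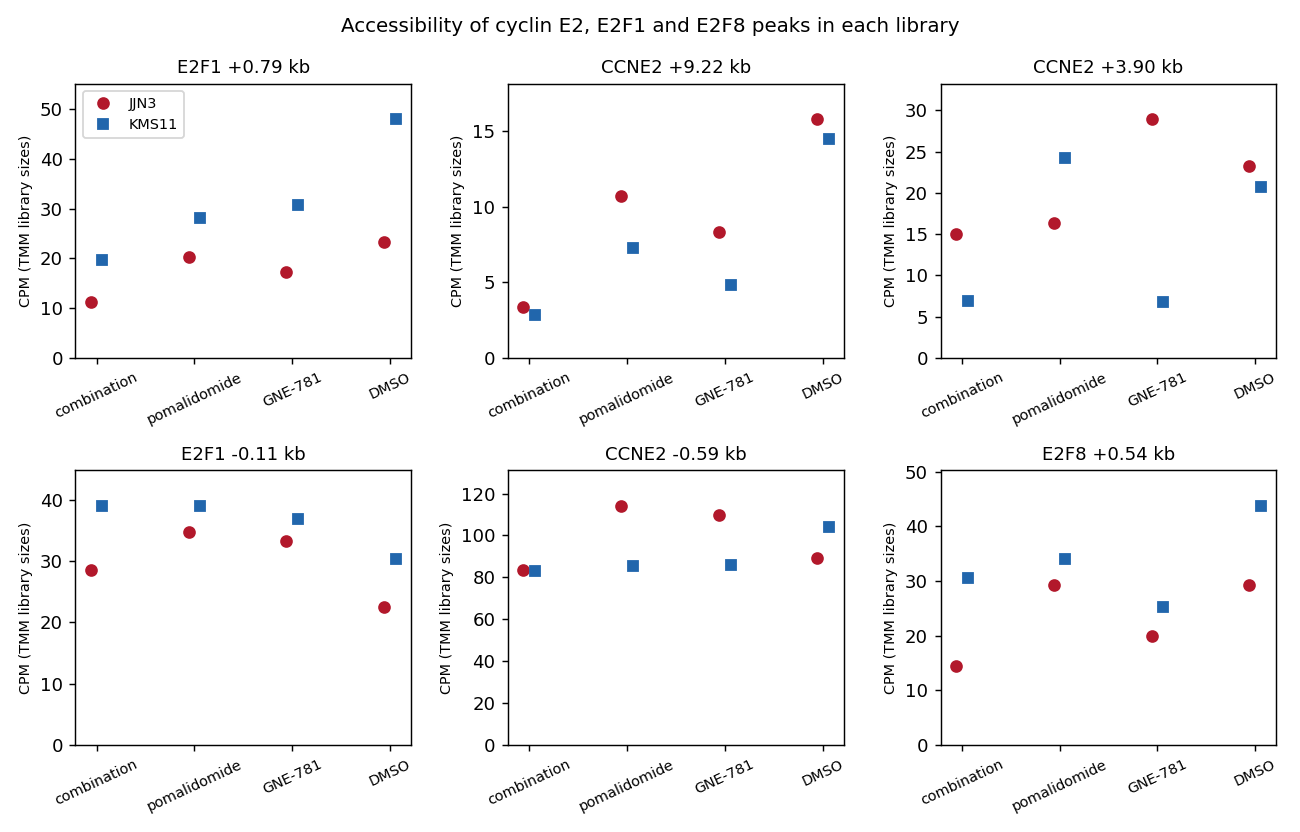
Accessibility in CPM (vertical axis) of 6 peaks at E2F1, CCNE2 and E2F8 in each of the 8 libraries, by treatment, with red circles for JJN3, blue squares for KMS11 and 1 point per library, each peak labelled with its gene and the distance of its centre from the start. At the CCNE2 peak deepest in the gene the combination libraries sit at 3.39 and 2.85 CPM, below the DMSO libraries at 15.8 and 14.5 CPM, while the CCNE2 promoter stays between 83 and 114 CPM.

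Few of the peaks of other genes around CCNE2 and E2F1 were called with the combination, and calls were also a minority of all peaks (4.79%). Peaks annotated to the same gene, among them the other called CCNE2 peak, are left out of these counts. Within 1 Mb of the distal CCNE2 peak lay 83 peaks of other genes, with a median change of -0.07 with the combination. Of these, 1 was called higher, 1 was called lower and 0 had a change as low. Around the inner E2F1 peak lay 88 peaks of other genes with a median of 0.05, 2 called higher and 1 lower, and 1 of them was as low. By class, the combination changed 1.69% of promoter peaks, 5.98% of peaks in genes and 5.68% of intergenic peaks. The inner E2F1 peak belongs to the promoter class, and both CCNE2 peaks to the class in genes.

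Among the marker lists, 3 of 28 plasma cell marker peaks (10.7%, beside 2.67% of all peaks called lower) were also lower with the combination, all of them at SDC1, which encodes the plasma cell surface proteoglycan syndecan-1. The summed promoter level of the plasma cell list was 200 and 202 CPM with the combination in JJN3 and KMS11, against 216 and 230 CPM with DMSO. The promoter peak at HBB, an erythroid gene, had 1.45 and 1.6 CPM with the combination, against 12.8 and 5.69 CPM with DMSO, and it was called at -2.32 ± 0.54 (adjusted p = 0.00515), while GATA1 and HBA1 had no promoter peak. No peak of the B cell, T and NK, myeloid or stromal lists was called in this comparison. The part of these shifts in the falls at CCNE2 and E2F1 was not tested.

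The start peak of E2F1, which covers the promoter window printed above, was not lower in any treated library. It lies at chr20:33686185-33686843, 85 bp from the inner peak. In JJN3 it had 28.6 CPM with the combination, 34.7 CPM with pomalidomide, 33.3 CPM with GNE-781 and 22.5 CPM with DMSO. KMS11 had 39 CPM with the combination, 39 CPM with pomalidomide, 36.9 CPM with GNE-781 and 30.3 CPM with DMSO. All 6 treated libraries were above the DMSO library of their line, yet the change with the combination, 0.35 ± 0.22, did not pass (adjusted p = 0.437). Pomalidomide gave 0.46 ± 0.22 (adjusted p = 0.398) and GNE-781 gave 0.38 ± 0.23 (adjusted p = 0.83).

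Because the E2F1 peaks are neighbours in the same library, the ratio of their counts is not shifted by depth or scaling. Its precision does depend on depth, and no counting interval is given. In JJN3 the inner and start peaks had 23 and 59 counts with the combination and 31 and 30 with DMSO. The KMS11 counts were 110 and 219 with the combination and 185 and 117 with DMSO. The inner peak had 0.39 counts per count of the start peak with the combination in JJN3, 0.587 with pomalidomide, 0.519 with GNE-781 and 1.03 with DMSO. In KMS11 the ratio was 0.502 with the combination, 0.72 with pomalidomide, 0.833 with GNE-781 and 1.58 with DMSO. The DMSO library had the highest ratio of each line and the combination library the lowest. This ratio was chosen after the values were seen and was given no test. The remaining E2F1 peak, 6167 bp into the gene at chr20:33679620-33680237, changed by 0.03 ± 0.26 with the combination and was not called.

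**Figure D2:**
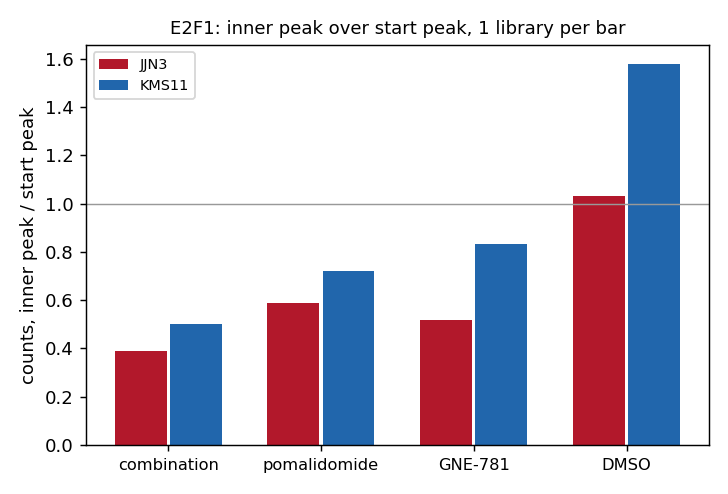
Counts in the inner E2F1 peak divided by counts in the E2F1 start peak (vertical axis, bars from 0), 1 bar per library, grouped by line and treatment. The combination bars reach 0.39 in JJN3 and 0.502 in KMS11, and the DMSO bars reach 1.03 and 1.58.

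The CCNE2 promoter was not called with the combination, while both peaks inside the gene fell. This peak at chr8:94894960-94896631 also overlaps NDUFAF6, the gene of a mitochondrial assembly factor that starts on the other side. It had 83.4 CPM with the combination, 114 CPM with pomalidomide, 110 CPM with GNE-781 and 89.4 CPM with DMSO in JJN3. The KMS11 libraries had 83 CPM with the combination, 85.5 CPM with pomalidomide, 85.7 CPM with GNE-781 and 104 CPM with DMSO. The change with the combination was -0.24 ± 0.18 (adjusted p = 0.528), and in JJN3 the DMSO library lay between the treated ones. The distal peak held 3.33% and 3.07% of the CCNE2 counts with the combination in JJN3 and KMS11, against 12.3% and 10.4% with DMSO. The promoter held 81.9% and 89.4% with the combination, against 69.6% and 74.7% with DMSO.

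**Figure D3:**
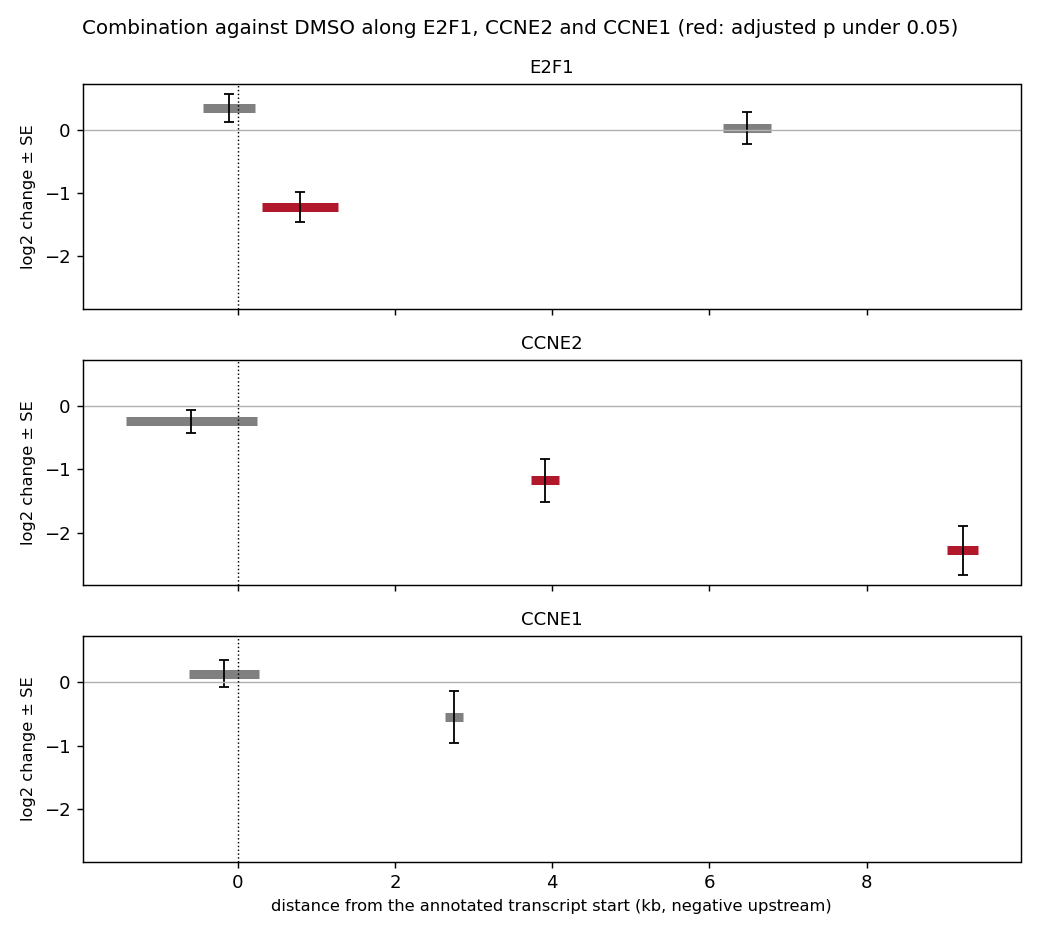
Change of each peak with the combination against DMSO (vertical axis, log2 ± SE) against the distance of its centre from the annotated start (horizontal axis) along E2F1, CCNE2 and CCNE1. At CCNE2 the peaks inside the gene lie at -2.28 and -1.17 and the promoter at -0.24, and at E2F1 the inner peak lies at -1.22 beside the start peak at 0.35.

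None of the 20 peaks was called with either single agent. Pomalidomide against DMSO called 0 of 20, where 1.25% of all peaks were called, and DESeq2 called 0 of the 18 to which it gave an adjusted p. An unadjusted p under 0.05 was found at 3 of the 20, beside 6956 of all 62234 peaks. GNE-781 against DMSO called 0 of 20, where 0.0209% of all peaks were called and DESeq2 called 0 of 20. Again 3 of the 20 had an unadjusted p under 0.05, beside 4096 of all 62234 peaks. The distal CCNE2 peak had -0.81 ± 0.33 with pomalidomide (adjusted p = 0.287) and -1.29 ± 0.38 with GNE-781 (adjusted p = 0.328). The inner E2F1 peak had -0.56 ± 0.23 with pomalidomide (adjusted p = 0.279) and -0.58 ± 0.24 with GNE-781 (adjusted p = 0.644). These comparisons share their DMSO libraries with each other and with the combination.

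The combination set directly against each agent also gave no call. Against pomalidomide 0 of 20 passed, and 0.0112% of all peaks were called, 0.00161% higher and 0.00964% lower. An unadjusted p under 0.05 was found there at 4 of the 20, beside 4605 of all 62234 peaks. Against GNE-781 0 of 20 passed, and 1.09% of all peaks were called, 0.999% higher and 0.0948% lower. Here 3 of the 20 had an unadjusted p under 0.05, beside 6675 of all 62234 peaks. DESeq2 called 0 of 20 against pomalidomide, and against GNE-781 0 of the 18 to which it gave an adjusted p. The distal CCNE2 peak was at -1.47 ± 0.4 against pomalidomide (adjusted p = 0.234) and at -0.98 ± 0.46 against GNE-781 (adjusted p = 0.407). The inner E2F1 peak was at -0.66 ± 0.24 against pomalidomide (adjusted p = 0.475) and at -0.64 ± 0.26 against GNE-781 (adjusted p = 0.279). Without the JJN3 pomalidomide library 1 of the 20 passed against pomalidomide.

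Additivity means that the changes of both agents add up on the log2 scale. Departure from it was called at 0 of the 20 peaks and at 0% of all peaks, with 0 called by DESeq2. An unadjusted p under 0.05 was found at 0 of the 20, beside 1643 of all 62234 peaks. The departure was -0.17 ± 0.55 at the distal CCNE2 peak, -0.08 ± 0.34 at the inner E2F1 peak and -0.53 ± 0.47 at the other CCNE2 peak inside the gene. The SEs are as large as the departures or larger for the first pair, so a departure of that size was not detectable at this depth.

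Where the libraries were pooled by drug, 4 with a drug against 4 without, both drugs lowered the same pair of peaks. This model takes the drugs as additive and uses the combination libraries again, so it is not independent of the results above. With pomalidomide 2 of 20 peaks were called, both lower, where 6.21% of all peaks were called, 4.39% higher and 1.82% lower. The inner E2F1 peak fell by 0.6 in log2 units (SE 0.16, adjusted p = 0.0129) and the distal CCNE2 peak by 0.87 (SE 0.26, adjusted p = 0.0277). With GNE-781 2 of 20 were called, both lower, where 0.961% of all peaks were called, 0.13% higher and 0.831% lower. The distal CCNE2 peak fell by 1.38 (SE 0.26, adjusted p = 0.0031) and the inner E2F1 peak by 0.62 (SE 0.16, adjusted p = 0.0399).

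Just outside the threshold for GNE-781 were the CCNE2 peak nearer the start, with -0.85 ± 0.23 (adjusted p = 0.0529), and the E2F8 promoter, with -0.56 ± 0.16 (adjusted p = 0.0562). The calls of the pooled model depended on single libraries. For pomalidomide, the inner E2F1 call was kept in 4 of the 8 fits that left out a library and lost without any 1 of the 4 KMS11 libraries, with -0.51 to -0.69 over all 8 and adjusted p up to 0.162. The distal CCNE2 call was kept in 1 of 8, that without JJN3 DMSO, with adjusted p up to 0.221. For GNE-781, the distal CCNE2 call was kept in 7 of 8 and lost without KMS11 DMSO (-1.28, adjusted p = 0.0591). The inner E2F1 call was kept in 1 of 8, that without JJN3 DMSO, with adjusted p up to 0.293. DESeq2 called 0 of the 19 peaks to which it gave an adjusted p for pomalidomide and 0 of 12 for GNE-781. The distal CCNE2 peak was among the 8 to which it gave none for GNE-781.

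Markers of plasma cells and of other cells moved in the same pooled comparisons. With pomalidomide 5 of 28 plasma cell marker peaks were called (17.9%, beside 6.21% of all peaks), 3 lower and 2 higher. The lower ones were the promoters of MZB1 (-0.7 ± 0.2) and CD38 (-0.45 ± 0.15) and a peak inside SDC1 (-0.57 ± 0.18), and the higher ones were inside MZB1 (0.79 ± 0.25) and PRDM1 (0.64 ± 0.17). Of the other lists, a peak inside the B cell gene PAX5 was lower (-0.72 ± 0.23), and peaks at CD2 (0.58 ± 0.19), ITGAM (0.54 ± 0.16) and COL1A1 (0.54 ± 0.17) were higher. The ITGAM peak was also higher with pomalidomide alone than with DMSO (0.85 ± 0.23, adjusted p = 0.0411). With GNE-781, 1 of 28 plasma cell marker peaks (3.57%, beside 0.961% of all peaks), inside SDC1, was lower at -1.02 ± 0.22, and so was the HBB promoter at -1.43 ± 0.36 (adjusted p = 0.0328). The part of these shifts in the pooled falls was not tested.

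**Figure D4:**
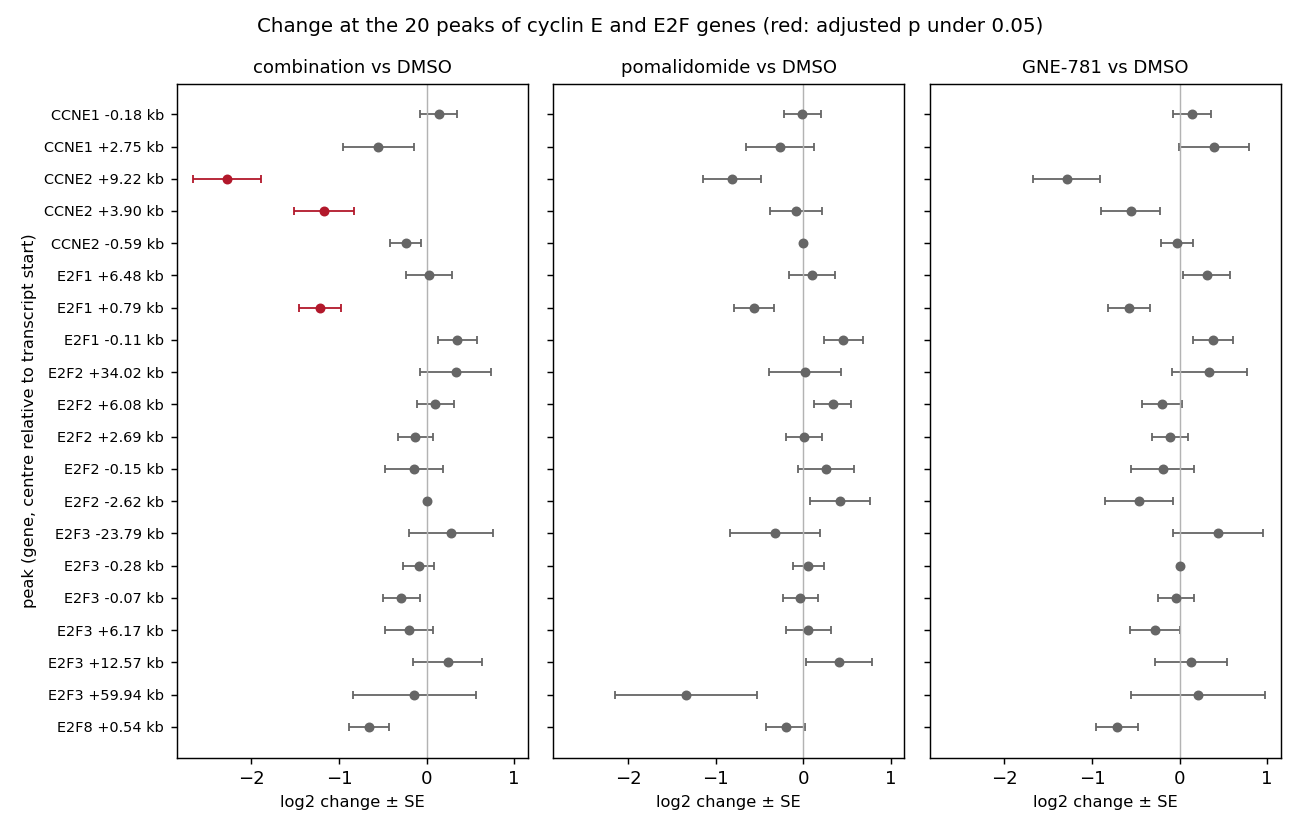
Change of each of the 20 peaks against DMSO (horizontal axis, log2 ± SE) with the combination, pomalidomide and GNE-781, in red where called, with no error bar where the change is under 0.01. The red points are the CCNE2 peaks at -2.28 and -1.17 and the inner E2F1 peak at -1.22, all with the combination.

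The response of the CCNE2 peak nearer the start to GNE-781 differed between the lines. In JJN3 it had 28.9 CPM with GNE-781, against 23.3 CPM with DMSO, a scaled count ratio of 1.24 (95% exact counting interval 0.767 to 2.02). In KMS11 it had 6.79 CPM with GNE-781, against 20.7 CPM with DMSO, a ratio of 0.328 (0.193 to 0.536). The test of the difference itself, over the libraries with and without GNE-781, gave 1.81 ± 0.37 for JJN3 minus KMS11 with an adjusted p of 0.0386. This was 1 of the 20 peaks and 1 of 6 called among all peaks (0.00964%). The call was lost in 7 of the 8 fits that left out a library, every one but that without KMS11 DMSO, with values from 1.6 to 2.03 and adjusted p up to 0.504. For pomalidomide 0 of 20 peaks were called as depending on the line, beside 0.0675% of all peaks. Of all peaks, 0.0193% were called with the more positive change in JJN3 and 0.0482% with the more positive change in KMS11. An unadjusted p under 0.05 was found at 3 of the 20, beside 4973 of all 62234 peaks.

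E2F8, the repressor of the family, had 1 peak, at its promoter at chr11:19240508-19241602, which also overlaps CSRP3-AS1. In JJN3 it had 14.5 CPM with the combination, 29.3 CPM with pomalidomide, 19.9 CPM with GNE-781 and 29.3 CPM with DMSO. KMS11 had 30.6 CPM with the combination, 34.1 CPM with pomalidomide, 25.2 CPM with GNE-781 and 43.7 CPM with DMSO. The libraries with GNE-781, alone or combined, were the lower pair in each line. The change was -0.66 ± 0.23 with the combination (adjusted p = 0.0786) and -0.71 ± 0.24 with GNE-781 (adjusted p = 0.469), and neither passed.

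CCNE1, the gene of cyclin E1, showed no call with any drug. Its promoter at chr19:29811380-29812276 had 33 CPM with the combination, 33.3 CPM with pomalidomide, 23.7 CPM with GNE-781 and 34.6 CPM with DMSO in JJN3. The KMS11 libraries had 59.3 CPM with the combination, 48.7 CPM with pomalidomide, 67.9 CPM with GNE-781 and 50 CPM with DMSO. The lines went opposite ways with GNE-781, and the change with the combination was 0.14 ± 0.21 (adjusted p = 0.803). A smaller peak 2634 bp into the gene, at chr19:29815288-29815521, had -0.55 ± 0.41 with the combination (adjusted p = 0.54).

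The activator genes E2F2 and E2F3 held 11 of the 20 peaks and gave no call in any treatment comparison. The E2F2 promoter at chr1:23531260-23531473 had 11.6 CPM with the combination, 17.3 CPM with pomalidomide, 9.62 CPM with GNE-781 and 10.5 CPM with DMSO in JJN3. In KMS11 it had 9.08 CPM with the combination, 10.5 CPM with pomalidomide, 9.7 CPM with GNE-781 and 11.1 CPM with DMSO. Treated libraries fell on either side of DMSO, with a change of -0.14 ± 0.33 with the combination (adjusted p = 0.887). The E2F2 peak with the lowest unadjusted p, in the intergenic stretch 33877 bp from the start, was at 0.33 ± 0.4 (adjusted p = 0.748).

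At E2F3 the upstream promoter, chr6:20401286-20401977, had 70.8 CPM with the combination, 99.3 CPM with pomalidomide, 97.5 CPM with GNE-781 and 87.9 CPM with DMSO in JJN3. KMS11 had 68.6 CPM with the combination, 62.8 CPM with pomalidomide, 59.5 CPM with GNE-781 and 65.5 CPM with DMSO. The combination was the lowest of the 4 in JJN3 and the highest in KMS11, and the change was -0.09 ± 0.18 (adjusted p = 0.862). The downstream promoter at chr6:20403273-20403944 had 33 CPM with the combination, 55.7 CPM with pomalidomide, 41.7 CPM with GNE-781 and 48.9 CPM with DMSO in JJN3. The KMS11 libraries had 41.7 CPM with the combination, 37.9 CPM with pomalidomide, 48.5 CPM with GNE-781 and 45.6 CPM with DMSO. The combination was below DMSO at this start in both lines, at -0.29 ± 0.21, and did not pass (adjusted p = 0.509).

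Summed over all peaks of a gene, only CCNE2 was called with the combination, 1 of 6 genes, where 3.49% of 24872 genes were called, 1.5% higher and 1.99% lower. The CCNE2 sum was 102 CPM with the combination, 141 CPM with pomalidomide, 147 CPM with GNE-781 and 129 CPM with DMSO in JJN3. In KMS11 it was 92.8 CPM with the combination, 117 CPM with pomalidomide, 97.3 CPM with GNE-781 and 139 CPM with DMSO. The combination was the lowest library of each line, and the change was -0.49 ± 0.15 (adjusted p = 0.0496), at the threshold. The call was lost in 6 of the 8 fits that left out a library, those without JJN3 pomalidomide, JJN3 GNE-781, JJN3 combination, KMS11 DMSO, KMS11 GNE-781 or KMS11 combination, with values from -0.68 to -0.23 over all 8. The other sums were -0.66 ± 0.22 for E2F8 (adjusted p = 0.0802), -0.25 ± 0.16 for E2F1, -0.14 ± 0.14 for E2F3, 0.02 ± 0.15 for E2F2 and 0.07 ± 0.18 for CCNE1. No gene sum was called with pomalidomide (0.595% of genes) or GNE-781 (0% of genes).

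Between JJN3 and KMS11, over 4 libraries each, 5 of 20 peaks were called at an adjusted p under 0.05 and at least 2-fold, 4 higher in JJN3 and 1 lower, where 31.9% of all peaks were called. Called peaks were thus no more frequent here than among all peaks. The largest difference was at the last E2F3 peak, 59860 bp into the gene, which was 2.53 ± 0.53 higher in JJN3 (adjusted p = 5.37e-05), although its counts were few. It had 7.27, 2, 8.98 and 3.76 CPM with the combination, pomalidomide, GNE-781 and DMSO in JJN3, and 0.534, 0.643, 0.647 and 1.81 CPM in KMS11.

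An E2F2 peak 2369 bp upstream of the start, at chr1:23533589-23534089, was 1.62 ± 0.25 higher in JJN3 (adjusted p = 9.07e-08). It had 23.3, 26.7, 10.3 and 14.3 CPM with the combination, pomalidomide, GNE-781 and DMSO in JJN3, and 4.45, 7.29, 5.82 and 7.51 CPM in KMS11, so the lines did not overlap. The intergenic E2F2 peak at chr1:23497063-23497343 was 1.07 ± 0.28 higher in JJN3 (adjusted p = 0.000996), with 12.6, 9, 12.2 and 7.52 CPM in JJN3 and 4.99, 4.5, 5.17 and 4.92 CPM in KMS11 in the same order. All 5 E2F2 peaks had a positive difference, and the 69 peaks of other genes within 1 Mb had a median of 0.43 to 0.44. The part of this regional level in the E2F2 differences was not tested.

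At CCNE1 the promoter and the peak inside the gene went opposite ways between the lines. The peak inside the gene was 1.56 ± 0.28 higher in JJN3 (adjusted p = 2.54e-06), with 10.7, 9.66, 19.9 and 12.8 CPM with the combination, pomalidomide, GNE-781 and DMSO in JJN3, against 2.67, 4.72, 5.17 and 4.92 CPM in KMS11. The promoter was at -0.83 ± 0.15 (adjusted p = 4.23e-06), which is lower in JJN3 but under 2-fold. The 36 peaks of other genes within 1 Mb of CCNE1 had a median of -0.79, and all 36 were below the peak inside the gene. The promoter thus lay at the level of its surroundings, whereas the peak inside the gene did not.

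The 1 peak that was lower in JJN3 past the threshold was the E2F1 peak deepest in the gene, with -1.05 ± 0.19 (adjusted p = 4.5e-06). It had 12.6, 12.3, 17.3 and 12 CPM with the combination, pomalidomide, GNE-781 and DMSO in JJN3, and 26.2, 28.7, 30.1 and 25.9 CPM in KMS11. The lines did not overlap. The inner E2F1 peak was at -0.76 ± 0.18 and the start peak at -0.29 ± 0.15, beside a median of -0.23 for the 88 peaks of other genes around them. This call was lost without JJN3 DMSO, JJN3 pomalidomide or KMS11 pomalidomide, where the difference was -0.98 and so under 2-fold. The call at the intergenic E2F2 peak was lost without the JJN3 combination library (0.96), and the other 3 line calls were kept in all 8 such fits.

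**Figure D5:**
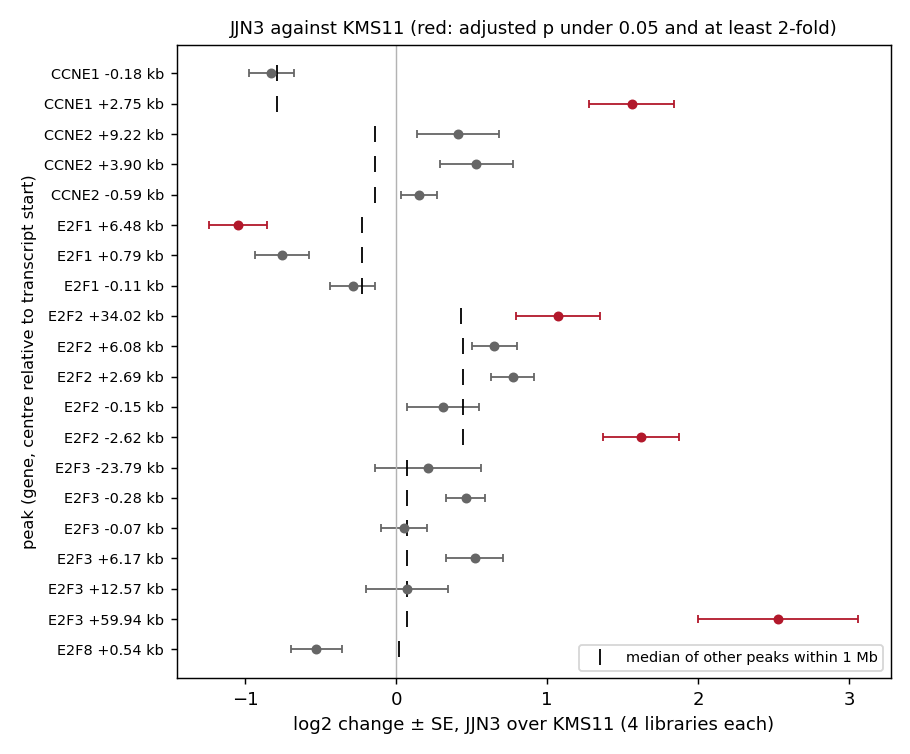
Difference between JJN3 and KMS11 (horizontal axis, log2 ± SE) for each of the 20 peaks, with a tick for the median of the peaks of other genes within 1 Mb. The CCNE1 peak inside the gene lies at 1.56 beside a local median of -0.79, while the CCNE1 promoter lies at -0.83.

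Of other E2F family members, dimerization partners, pocket proteins and MuvB subunits, 12 of 15 genes had peaks, 34 in all, and the combination raised 1 and lowered 2 of them (8.82%, beside 4.79% of all peaks, with a median of -0.1, beside 0). A peak inside TFDP2, which encodes a dimerization partner of E2F, rose by 1.61 ± 0.32 (adjusted p = 0.000844). Peaks inside MYBL2, an E2F target whose product works with the MuvB complex, and E2F5, a repressor E2F, fell by 0.67 (SE 0.18, adjusted p = 0.0147) and by 0.75 (SE 0.21, adjusted p = 0.0269). Among the regulators of cyclin E and CDK2, such as the inhibitor CDKN1A and the ubiquitin ligase subunit FBXW7, 9 of 10 genes had 20 peaks and 0 were called by edgeR with the combination (median -0.04). Pooled by pomalidomide, peaks near RBL2 (1.29 ± 0.32), which encodes a pocket protein, and inside TFDP2 (0.9 ± 0.21) rose, 2 of 34 (5.88%, beside 6.21% of all peaks). Pooled by GNE-781 the MYBL2 peak fell by 0.52 (SE 0.12), 1 of 34 (2.94%, beside 0.961%). Of those 20 peaks 2 were called when pooled by pomalidomide (10%, beside 6.21%): a peak inside CDKN1A rose by 0.57 ± 0.15 (adjusted p = 0.0121) and a peak inside SKP2, which encodes a subunit that targets the CDK inhibitor p27, fell by 0.81 (SE 0.26, adjusted p = 0.0438).

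Of 22 S phase genes known as E2F targets, 19 had 38 peaks, and with the combination 0 were higher and 2 were lower (5.26%, beside 4.79% of all peaks, with a median of -0.12). Both lie inside POLA1, the gene of the catalytic subunit of DNA polymerase alpha, at -1.24 ± 0.39 (adjusted p = 0.0458) and -1.14 ± 0.32 (adjusted p = 0.0226). Pooled by pomalidomide, peaks near CDC6 (1.37 ± 0.39), MCM3 (1.29 ± 0.42), EZH2 (0.98 ± 0.29) and TK1 (0.73 ± 0.21) rose, 4 of 38, and 1 at POLA1 fell by 1.08 (SE 0.27), together 13.2% beside 6.21% of all peaks. The same EZH2 peak was higher by 1.77 ± 0.47 with the combination than with GNE-781 (adjusted p = 0.0349), where no other peak of these lists was called. Pooled by GNE-781, 1 peak at POLA1 fell by 0.84 (SE 0.22, adjusted p = 0.0465), or 2.63% of the 38 beside 0.961%. The peaks of these 3 pathway lists called in the treatment and pooled drug comparisons lay inside genes or between them, and none was a promoter peak. The peaks of these lists called between the lines are not covered by that statement.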

How the data were processed

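ATAC-seq was measured in 8 libraries, 1 for each of 2 lines and 4 treatments, grouped by their cell line and treatment labels. The authors deposited 1 table of raw counts, whole numbers for each peak in each library, over 62528 peaks with the nearest transcript of each. Per the submitters' processing notes, MACS2 2.1.1.20160309, Bowtie2 2.3.5.1, cutadapt 2.5, R 4.1.2, Trim Galore 0.6.4 and SAMtools 1.10 were used with GRCh38. Not given in the sources used here are whether reads or fragments were counted, how duplicates were handled and whether ends were shifted for the transposase. If PCR copies were counted, the true counting error is wider than the intervals. A peak set shared by all libraries favours the deeper ones.

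Counts in peaks with a mean of at least 2 CPM were TMM-normalized and tested in R 4.3.3 with the two-sided quasi-likelihood test of edgeR 4.0.16, with a Benjamini-Hochberg adjustment over all 62234 peaks. The model held the line and the treatment, with 3 residual degrees of freedom, a common biological coefficient of variation of 0.13, and 62.8 prior degrees of freedom that come from all peaks together, so a peak can be called although the lines disagree there. A second model held each drug as present or absent, and another model added the line's interaction with each drug. Line calls also needed a 2-fold change. CPM use the scaled library sizes. Ratios within a line have 1 library a side, so their intervals (Clopper-Pearson) cover counting error only. Separate cultures are not stated in the labels, and the p-values reflect only how these libraries vary, and that variation may be technical. Libraries of a line deviated together from the treatment means (correlations of 0.72 to 0.82 over 12 pairs). Each mean holds 1 library of each line, so the pairs of both lines mirror each other. The correlations therefore carry the difference between the lines, which the block uses, and show no pairing beyond it. The treatment model and the pooled drug model were run on simulated counts with a fixed spread and the same changes in both lines. Those runs cannot show how calls behave where the lines disagree.

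The text gives in full each promoter peak, each called peak and the peak of each gene with the lowest unadjusted p in the combination, and, for the treatment comparisons, the called peaks of 3 pathway lists and the cell type marker lists. DESeq2 gave no adjusted p to some low peaks, which are left out of its counts. Members and lists were chosen with earlier results of these data known. The genes most alike in pattern were taken by Pearson's r. Other normalizations (including limma 3.58.1 cyclic loess), filters, DESeq2 1.42.0, a model without the block and fits without each library were tried. Promoter sequences are those of RefSeq in GRCh38.p14.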

Additional observations from a re-analysis of the deposited data

Results flagged for a closer look

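At the CCNE2 peak 3725 bp into the gene, the change with GNE-781 was 1.81 higher in JJN3 than in KMS11 on the log2 scale. It was taken over all libraries with and without GNE-781. The test of that difference passed with TMM but not with cyclic loess, and the call depended on single libraries, as given above. In 4 other cases 1 library of a line stood far from the other 3. Such gaps are found by chance in about 1 of 20 groups, and 40 groups of 4 were examined. The CCNE1 promoter had 23.7 CPM with GNE-781 in JJN3, against 33 to 34.6 CPM in the other JJN3 libraries. The E2F1 peak deepest in the gene had 17.3 CPM with GNE-781 in JJN3, against 12 to 12.6 CPM in the others. The CCNE2 promoter had 83 to 85.7 CPM in the treated KMS11 libraries, against 104 CPM with DMSO. The E2F3 peak deepest in the gene had 0.534 to 0.647 CPM in the treated KMS11 libraries, against 1.81 CPM with DMSO. The JJN3 GNE-781 library and the KMS11 DMSO library each appear in 2 of these cases.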

How the results depend on the processing

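The changes of the called peaks kept their direction in all alternatives tried. With the line in the model, the distal CCNE2 peak and the inner E2F1 peak stayed called for the combination under the other normalizations, the other filters, DESeq2 and a fit of no more than the treatments compared, with values of -2.31 to -2.25 and -1.25 to -1.19 and adjusted p up to 0.00664 and 0.0241, but without KMS11 DMSO both were lost (adjusted p = 0.0587 and 0.271), and the E2F1 call also without the KMS11 combination library (0.12). The CCNE2 peak nearer the start was kept in 4 of 7 settings, and cyclic loess and DESeq2 ended its call. Without the replicate block, when the line is left out of the model, 0 of the 20 peaks were called for the combination, 0 for either pooled drug, and 0 gene sums, and 0 of all peaks in every treatment comparison. The line comparison and the line-dependence tests have no form without the line. For the pooled GNE-781 libraries, size factors of the DESeq2 type gave 4 member calls, cyclic loess 1 and DESeq2 0 of the 12 with an adjusted p. DESeq2 gave 0 for pooled pomalidomide. Cyclic loess gave 0 for the line dependence of GNE-781. The CCNE2 sum was called in 0 cases under cyclic loess, the minimum of 5 CPM, DESeq2 and promoter peaks alone. Leaving out 1 library gave counts, not always of the same peaks, of 0 to 3 calls for the combination, 0 to 1 against pomalidomide, 0 to 2 for pooled pomalidomide, 0 to 3 for pooled GNE-781, 0 to 1 for the line dependence of GNE-781 and 0 to 1 gene sums. The fits that leave out a library assume that the remaining lone library of a treatment varies like the others, and those for line dependence were added after the data were seen. The cause of these changes was not tested.

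Over all peaks, DESeq2 called 394 instead of 2979 for the combination, 74 instead of 780 for pomalidomide, 0 instead of 13 for GNE-781, 0 instead of 7 against pomalidomide, 91 instead of 681 against GNE-781, 1050 instead of 3864 for pooled pomalidomide and 122 instead of 598 for pooled GNE-781. For GNE-781, cyclic loess and the minimum of 5 CPM each called 7, and a fit with no other libraries than those compared called 47. That fit called 82 against pomalidomide and 1125 against GNE-781. Cyclic loess called 5 instead of 42 for the line dependence of pomalidomide and 2 instead of 6 for that of GNE-781. Leaving out 1 library gave 371 to 3354 calls for the combination, 64 to 1074 for pomalidomide, 1 to 36 for GNE-781, 0 to 34 against pomalidomide, 72 to 901 against GNE-781, 1834 to 3362 for pooled pomalidomide, 102 to 519 for pooled GNE-781, and 1 to 52 and 1 to 10 for the line dependence of pomalidomide and of GNE-781. Depth limits the low peaks most in JJN3 with DMSO, where the median peak had 12 counts.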

Other observations

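CDK2, the kinase that cyclin E activates, has its RefSeq start at position 55966830 of chromosome 12, inside a peak that the authors' annotation gives to RP11-973D8.4. That peak, chr12:55966348-55967141, had 14.5 CPM with the combination, 15.3 CPM with pomalidomide, 8.98 CPM with GNE-781 and 16.5 CPM with DMSO in JJN3. In KMS11 it had 26 CPM with the combination, 19.9 CPM with pomalidomide, 21.7 CPM with GNE-781 and 28.7 CPM with DMSO. Every treated library was below the DMSO library of its line, and the change with the combination was -0.16 ± 0.26 (adjusted p = 0.829 by edgeR). The peak was -0.76 ± 0.2 between JJN3 and KMS11 (adjusted p = 0.000885), lower in JJN3 but under 2-fold.

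The 5 genes of 19184 whose summed accessibility, centred within each line, was most like that of E2F1 over the 8 libraries were a transcript known by a clone name (r = 0.985), FAM114A2 (0.979), SNORA72 (0.978), PSMD10 (0.977) and AGO1 (0.972). Those most like CCNE2 were CTD-2028E8.1 (r = 0.985), GRPR (0.982), APC2 (0.981), ASZ1 (0.975) and PAPSS1 (0.973). The coefficients are given as a description, and the libraries share their lines and treatments. None of these genes is a member of the lists of E2F family members and partners, cyclin E regulators or S phase genes.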
